A study of Mus musculus with 4 samples.

Results

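App and the genes of its cleavage were followed in the transcriptome of HT-22 cells, an immortalised mouse hippocampal neuronal line, with and without extra Nsmce1. The genes were taken by symbol from a list of 9 that holds App (amyloid precursor protein), its homologues Aplp1 and Aplp2, the gamma-secretase subunits Psen2, Ncstn, Aph1a and Psenen, the gamma-secretase activating protein Gsap and the beta-secretase Bace1. Of the 25050 genes in the table, 8 of the 9 listed were measured and all 8 passed the filter on low values, a mean over the libraries of 10 normalised reads. Aplp1 was not analysed here. The first group of cells overexpressed Nsmce1, a RING-type subunit of the SMC5/6 DNA repair complex with ubiquitin ligase activity. According to the design text this expression was inducible, and the controls were uninduced cells, which the labels call wild type. Both groups share the line, the passage range of 21 to 24 and the growth medium. The sources used here give neither the inducer nor the promoter, nor whether the cells were a clone. There were 2 libraries of each group, and what Nsmce1 did cannot be told apart from whatever else set these 2 cell populations apart.

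Amyloid precursor protein is a single-pass membrane protein. Cleavage by an alpha-secretase cuts within the amyloid-beta stretch, whereas cleavage by Bace1 followed by gamma-secretase frees amyloid beta from it. Gamma-secretase is built from a presenilin, which carries the catalytic aspartates, together with nicastrin (Ncstn), Aph1 and Pen-2 (Psenen). It also cuts many other membrane stubs, among them those of Notch receptors and of the App homologues. The design text states that App and Gsap were inhibited by Nsmce1 overexpression, so the comparison asks whether these and their partner genes differed between overexpressing and wild type cells.

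The end of the App coding sequence is shown beside that of Aplp2 because it holds the amyloid-beta stretch of App. Both are the last 99 codons before the stop codon, read 5′ to 3′ on the minus strand of GRCm38 (GENCODE M21). For App they lie in exons 16 to 18 within chr16:84955334-84965720, and the capitals mark the 42 codons of amyloid beta. For Aplp2 they lie in exons 15 to 17 within chr9:31150874-31152354, and the capitals mark bases identical to App when both are set side by side from the stop codon without gaps.

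App: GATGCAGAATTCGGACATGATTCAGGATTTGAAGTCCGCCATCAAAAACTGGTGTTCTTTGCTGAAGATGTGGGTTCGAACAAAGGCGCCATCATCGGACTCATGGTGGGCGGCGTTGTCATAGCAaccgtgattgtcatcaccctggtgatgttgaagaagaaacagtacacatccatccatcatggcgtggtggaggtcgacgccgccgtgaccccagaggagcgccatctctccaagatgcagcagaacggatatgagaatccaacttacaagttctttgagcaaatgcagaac

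Aplp2: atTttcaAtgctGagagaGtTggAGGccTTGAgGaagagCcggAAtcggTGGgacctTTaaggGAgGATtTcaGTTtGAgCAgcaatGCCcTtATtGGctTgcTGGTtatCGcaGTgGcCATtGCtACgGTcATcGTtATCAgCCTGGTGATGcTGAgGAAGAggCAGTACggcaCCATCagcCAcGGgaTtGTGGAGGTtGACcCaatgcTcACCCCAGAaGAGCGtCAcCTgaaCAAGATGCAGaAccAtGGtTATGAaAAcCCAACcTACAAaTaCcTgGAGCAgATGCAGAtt

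In the amyloid-beta stretch 57 of 126 bases were the same in Aplp2 (45.2%), against 122 of the 171 bases after it (71.3%), which code for the end of the membrane span and the cytoplasmic tail. The longest run of identical bases in any pair of annotated protein-coding App and Aplp2 transcripts was 24. Between protein-coding transcripts of Aph1a and of its paralogues Aph1b and Aph1c the longest run was 16 bases. Aph1b and Aph1c share a run of 341 bases, so their own counts are uncertain.

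The promoters of App and Gsap are shown because the design text names these genes together. Each runs from 250 bases before to 50 bases after the RefSeq start (GRCm38.p6), App at chr16:85173658-85173957 on the minus strand and Gsap at chr5:21176029-21176328 on the plus strand. Capitals mark the GC box, GGGCGG on either strand.

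App: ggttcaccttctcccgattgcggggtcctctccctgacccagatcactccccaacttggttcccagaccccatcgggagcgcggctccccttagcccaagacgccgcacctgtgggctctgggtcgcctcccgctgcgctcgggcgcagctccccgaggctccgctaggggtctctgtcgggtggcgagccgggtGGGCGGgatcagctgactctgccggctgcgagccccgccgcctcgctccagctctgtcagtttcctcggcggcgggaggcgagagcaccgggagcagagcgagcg

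Gsap: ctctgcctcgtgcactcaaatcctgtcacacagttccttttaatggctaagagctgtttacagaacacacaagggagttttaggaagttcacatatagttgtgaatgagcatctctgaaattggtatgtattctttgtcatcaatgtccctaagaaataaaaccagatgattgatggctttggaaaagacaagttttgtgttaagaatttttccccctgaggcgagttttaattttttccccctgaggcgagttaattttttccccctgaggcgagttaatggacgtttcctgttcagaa

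The App promoter was 71.0% G and C with 30 CpG dinucleotides, and the Gsap promoter 40% with 5, beside medians of 52.7% and 7 over 32851 mouse promoters. The GC box was found in 4 of the 9 promoter entries of these genes, once in App and 4 times in Aplp2, and in 35.7% of all promoters. The TATA box, TATAAA on either strand, was in 0 of the 9 entries and in 13.6% of all promoters. These letters describe the windows and say nothing of which factors bind there.

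The libraries held 32516117 and 44602989 reads in overexpressing cells and 25787452 and 31010351 reads in wild type cells, recovered from the deposited values. Nsmce1 had 17851 and 16525 normalised reads in overexpressing cells, against 1108 and 1206 in wild type cells, which is 14.8-fold higher (limma, Benjamini-Hochberg adjusted p = 9.06e-05) in the direction of the labels. Of the 16 neuronal markers listed, 5 passed the filter on low values, and the hippocampal and glutamatergic markers Prox1, Gria1, Grin1 and Slc17a7 had at most 5.27 normalised reads in any library. All 7 fibroblast and mesenchymal markers passed, with summed levels of 420681 to 489217 normalised reads in overexpressing cells and 451834 to 514522 in wild type cells. The neuronal markers with a value summed to 3957 to 3964 normalised reads in overexpressing cells and 3579 to 4317 in wild type cells. Among the 5 neuronal markers that passed, the synaptic genes Dlg4 and Syn1 had 1867 to 2425 and 1024 to 1219 normalised reads over the 4 libraries. The neuronal tubulin gene Tubb3 had 446 to 622. The remaining markers that passed were low, Camk2a with 30.5 to 108 normalised reads and Syp with 6.29 to 17.0. Of the 11 listed neuronal markers that did not pass, 5 were under the filter and 6 were not analysed here. Of the other markers listed, 1 of 5 for astrocytes, 2 of 4 for oligodendrocytes and 2 of 4 for microglia passed the filter. Slc1a3 (astrocyte list) had 4537 and 4245 normalised reads in overexpressing cells, against 3302 and 2956 in wild type cells (limma adjusted p = 0.181). Tmem119 (microglia list) had 1587 and 1494 in overexpressing cells, against 2184 and 1830 in wild type cells (limma adjusted p = 0.465). In bulk RNA, fewer cells of a kind and less RNA per cell cannot be told apart. Nothing in the labels says that the libraries came from separate cultures. Each p therefore measures only the spread between these libraries, with variances that limma shares across genes.

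No difference between the groups passed the test for these genes: 0 of 8 reached an adjusted p of 0.05 (limma with Benjamini-Hochberg adjustment), 0 had an unadjusted p under 0.05, and limma voom on the recovered reads called 0 as well. Over all 15540 genes tested, 0.193% were called, 0.103% higher and 0.0901% lower in overexpressing cells, and 7.92% had an unadjusted p under 0.05. The log2 fold changes ran from -0.23 for Psenen to 0.16 for Psen2, with 5 above 0 and 3 below. Their median size without sign was 0.067 on the log2 scale, beside 0.125 over all genes tested and 0.085 over the 8872 genes with a mean of at least 500 normalised reads. A p above the threshold does not show equal expression. The 95% interval of each fold change gives the range allowed by these libraries together with variances that limma shares across genes. Of the 6.10 degrees of freedom behind each interval, 4.10 came from all genes tested. Without the variance trend the intervals of all 8 genes were wider, with App at -0.19 to 0.33 and Aplp2 at -0.33 to 0.43.

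**Figure D1:**
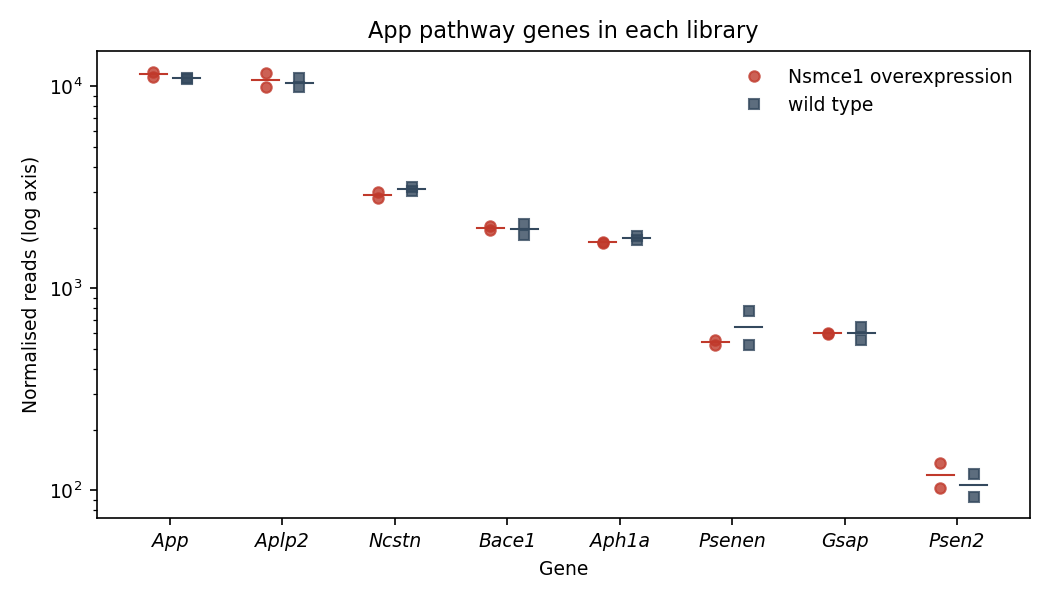
Normalised reads on a log axis for the 8 measured genes in each library, with Nsmce1-overexpressing libraries as circles left of wild type libraries as squares and a bar at each group's mean (n = 2 each). The groups lie close together for every gene, and the wild type libraries of Psenen, at 523 and 771, stand farthest apart on this axis.

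App itself, the substrate, had 11789 and 11149 normalised reads in overexpressing cells, against 10993 and 10915 in wild type cells. Both overexpressing libraries were above both wild type libraries, by a gap of 0.02 on the log2 scale between the nearest pair. App's log2 fold change was 0.07 (SE 0.071; 95% interval -0.11 to 0.24; limma adjusted p = 0.845). As a change of level this interval runs from -7.17% to 18.0%. The wild type libraries differed by 0.01 on the log2 scale, within the counting error of 0.021 (SD), and the overexpressing libraries by 0.08 beside 0.018.

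App's homologue Aplp2, cut by the same secretases but without an amyloid-beta stretch, had 11674 and 9935 normalised reads in overexpressing cells, against 10960 and 9885 in wild type cells. The groups overlapped, and each held 1 higher and 1 lower library. Aplp2 had a log2 fold change of 0.05 (SE 0.104, 95% interval -0.20 to 0.30, limma adjusted p = 0.933). Within a library Aplp2 stood at 2.23 and 2.0 times App per kilobase of transcript in overexpressing cells, against 2.24 and 2.04 times in wild type cells. This ratio overlapped between the groups (two-sided exact permutation p = 0.667, where 0.333 is the smallest that 2 libraries against 2 allow).

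Bace1, the protease of the first amyloidogenic cut, had 2025 and 1948 normalised reads in overexpressing cells, against 2089 and 1844 in wild type cells. The overexpressing libraries lay between the wild type ones. For Bace1 the log2 fold change was 0.02 (SE 0.096; 95% interval -0.22 to 0.25; limma adjusted p = 0.982). Bace1 shares 975 exon bases with Rnf214 and 951 with Gm49338, both on the opposite strand, and the sources used here do not say whether counting used the strand. Gm49338 had 286 and 266 normalised reads in overexpressing cells and 340 and 291 in wild type cells. Rnf214 had 878 and 856 in overexpressing cells and 822 and 710 in wild type cells, and how many reads were split between them and Bace1 was not tested.

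Among the gamma-secretase subunits, Ncstn, the large glycoprotein subunit that takes part in substrate recognition, had 2812 and 2983 normalised reads in overexpressing cells, against 3041 and 3178 in wild type cells. Both overexpressing libraries were below both wild type libraries. This was a log2 fold change of -0.10 (SE 0.081, 95% interval -0.30 to 0.09, limma adjusted p = 0.786). Ncstn shares 195 exon bases with Copa on the opposite strand, a coat protein gene with 15177 and 15503 normalised reads in overexpressing cells and 16484 and 15717 in wild type cells.

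Aph1a, the scaffold subunit, had 1684 and 1703 normalised reads in overexpressing cells, against 1743 and 1809 in wild type cells. It was also lower in both overexpressing libraries, by 0.03 on the log2 scale between the nearest libraries of the groups. Its log2 fold change was -0.07 (SE 0.083, 95% interval -0.27 to 0.13, limma adjusted p = 0.868). Its overlapping opposite-strand neighbour Car14 had at most 6.57 normalised reads in any library.

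Non-overlapping groups were found for 3 of the 8 genes, App higher and Ncstn and Aph1a lower in overexpressing cells. Over all genes tested 39.1% had non-overlapping groups, 20.8% higher and 18.3% lower. The members' count stands near that background.

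Psenen, the smallest subunit, needed for the cut that activates presenilin, had 557 and 526 normalised reads in overexpressing cells, against 523 and 771 in wild type cells. Wild type replicate 2 stood above the other 3 libraries, which lay close together. Psenen's log2 fold change was -0.23 (SE 0.193, 95% interval -0.70 to 0.24, limma adjusted p = 0.804). It was 0.05 without wild type replicate 2 and -0.51 without wild type replicate 1, where the unadjusted p fell under 0.05 but the limma adjusted p was 0.617. The wild type libraries differed by -0.56 on the log2 scale, beside a counting SD of 0.089. Psenen shares 119 exon bases with U2af1l4 and 111 with Gm49396 on the opposite strand. U2af1l4 had 169 and 139 normalised reads in overexpressing cells and 163 and 162 in wild type cells, and Gm49396 had 351 and 380 in overexpressing cells and 284 and 362 in wild type cells.

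Psen2, one of the pair of presenilins, was the least abundant, with 137 and 102 normalised reads in overexpressing cells, against 93.1 and 120.1 in wild type cells. The groups overlapped. Its log2 fold change was 0.16 (SE 0.245, limma adjusted p = 0.903), and its 95% interval, -0.44 to 0.76, was the widest of the 8. As a change of level this interval runs from -26.1% to 69.3%. The overexpressing libraries differed by 0.42 on the log2 scale, beside a counting SD of 0.173, and the wild type libraries by -0.36, beside 0.215. The smallest library held 74 reads of Psen2.

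Gsap, whose fragment has been described as a modulator of gamma-secretase cleavage of App, had 601 and 597 normalised reads in overexpressing cells, against 641 and 555 in wild type cells. The overexpressing libraries lay together, between the wild type ones. Gsap's log2 fold change was 0.01 (SE 0.121; 95% interval -0.29 to 0.30; limma adjusted p = 0.997). As a change of level the interval runs from -18.2% to 23.2%. Of all genes tested, 96.6% had a smaller p than Gsap and 46.1% a smaller p than App.

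**Figure D2:**
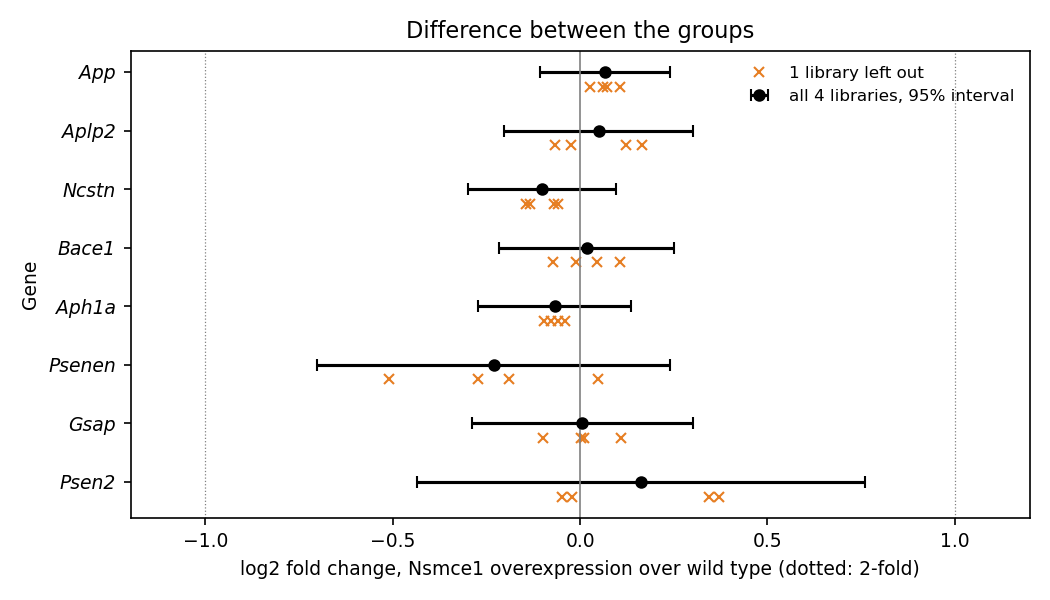
Log2 fold change of each gene, Nsmce1 overexpression over wild type, with its 95% limma interval in black and the value with each library left out as orange crosses (2 libraries per group). Every interval crosses 0, and the crosses of Psenen run from -0.51 to 0.05.

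Levels of different genes were compared per kilobase of the transcript with the longest coding sequence. Aplp2 averaged 2973 ± 338 normalised reads per kilobase in overexpressing cells and 2868 ± 209 in wild type cells (SD, n = 2 each). App averaged 1404 ± 55.4 in overexpressing cells and 1341 ± 6.77 in wild type cells on the same scale. A middle tier was formed by 3 subunits of the enzyme. Ncstn had 999 ± 41.8 normalised reads per kilobase in overexpressing cells and 1072 ± 33.6 in wild type cells. Aph1a had 1058 ± 8.41 in overexpressing cells and 1109 ± 29.3 in wild type cells, and Psenen 765 ± 31.4 in overexpressing cells and 914 ± 247 in wild type cells. On this scale Aph1a was above Ncstn and Ncstn above Psenen in all 4 libraries, but their order changed with the length used.

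Bace1 followed at 328 ± 9.04 normalised reads per kilobase in overexpressing cells and 325 ± 28.6 in wild type cells. Gsap had 160.0 ± 0.733 in overexpressing cells and 159.7 ± 16.3 in wild type cells, and Psen2 was lowest at 59.2 ± 12.2 in overexpressing cells and 52.8 ± 9.45 in wild type cells. Psen2 was 0.0492 to 0.070 of the level of Ncstn in overexpressing cells and 0.044 to 0.0542 in wild type cells. The order held in all 4 libraries and with 3 definitions of gene length for 23 of the 28 gene pairs. The exceptions were Aplp2 against App, the 3 pairs among Ncstn, Aph1a and Psenen, and Ncstn against Bace1. With coding length alone, Aplp2 and App were level at a mean ratio of 0.970 over the 4 libraries, against 2.13 by transcript length, so their order depends on the length used.

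App lies on chromosome 16, whose tested genes lay mostly above 0: the median log2 fold change of the 447 others was 0.17, with 338 above 0 and 109 below. Among its 10 nearest tested genes, 5 on each side, 4 were above 0 and 6 below, with a median of -0.07. Over the 20 nearest, 10 on each side, 10 were above 0 and 10 below, with a median of 0.02. The median was 0.11 over the 40 nearest genes and 0.13 over the 80 nearest, and these window sizes were chosen after the data were seen. Set against its whole chromosome, App had a log2 fold change of -0.11 (95% interval -0.28 to 0.07), so the sign of its small difference depends on that choice. Chromosome 10 also lay above 0, with a median of 0.14 over 752 tested genes. Chromosomes 16 and 10 aside, the medians of chromosomes with more than 2 tested genes lay between -0.036 and 0.035. The cause of these shifts was not tested.

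On one side of App the nearest tested genes, Gabpa, coding for a transcription factor subunit, and Atp5j, for a subunit of ATP synthase, had log2 fold changes of 0.04 and 0.07. On the other side the nearest, Gm2541, had -0.16 (SE 0.230), followed by Adamts1 and Adamts5. Adamts1, a secreted metalloprotease gene beside App, had 1226 and 1317 normalised reads in overexpressing cells, against 1886 and 1719 in wild type cells. It was lower in both overexpressing libraries, with a log2 fold change of -0.50 (SE 0.097) that did not pass (limma adjusted p = 0.203). Its neighbour Adamts5, an aggrecan-cutting protease gene, had a log2 fold change of -0.47 (SE 0.149, limma adjusted p = 0.509). For the other 7 genes the median of the 20 nearest tested genes lay between -0.06 and 0.07.

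**Figure D3:**
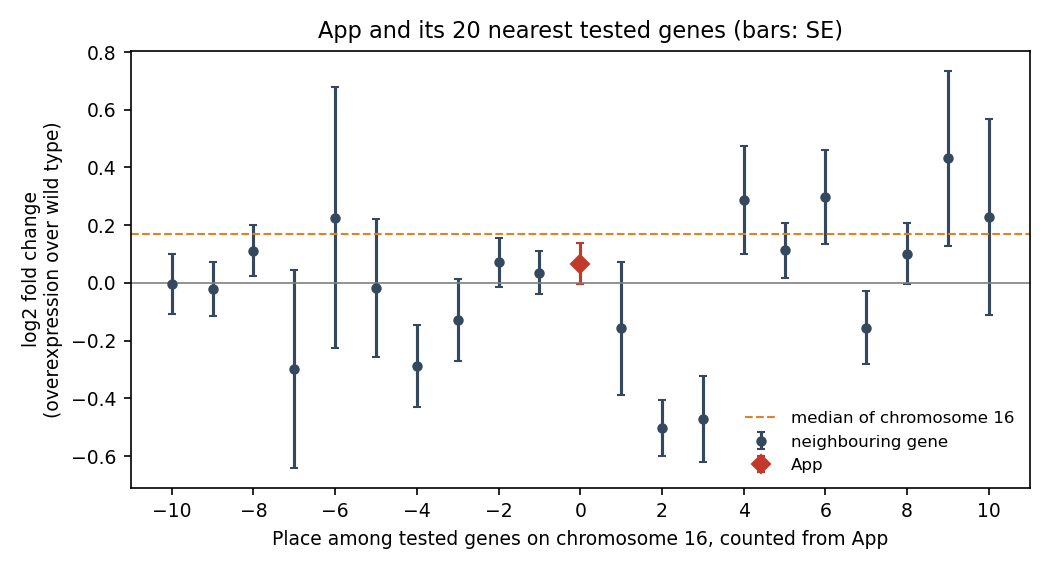
Log2 fold change (Nsmce1 overexpression over wild type) of App and its 20 nearest tested genes by place along chromosome 16, with bars of 1 SE from 4 libraries and a dashed line at the median of the chromosome. The neighbours scatter around 0, with Adamts1 at -0.50 and Adamts5 at -0.47 the lowest.

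Genes with the most similar profile over the 4 libraries were sought among the 8421 genes without a provisional symbol whose mean reached 500 normalised reads, by the Euclidean distance between centred log2 values. For App these were Slc35e1, Gpbp1l1, Foxj2, Lamp2 and Ctnnbip1, at distances of 0.01 to 0.016. Lamp2, a lysosomal membrane protein gene, had 20997 and 19936 normalised reads in overexpressing cells, against 19750 and 19395 in wild type cells. For Gsap they were Enpp4, Sart3, Usb1, Arhgef7 and Abhd12, and for Bace1 they included Xrcc2, Usp47, Tti1 and Usp48. With 4 values per gene such likeness is common: 1010 genes lay within a distance of 0.1 of App, 429 of Gsap and 559 of Bace1.

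The wider pathway was described with 7 lists of 61 genes, of which 54 had a value and 51 were tested. None of the 51 passed the adjusted threshold by limma or by voom, and the lowest limma adjusted p was 0.267. By either tool 5 had an unadjusted p under 0.05, beside 7.92% of all genes tested by limma. Of the 51, 30 were above 0 and 21 below, with a median log2 fold change of 0.04, beside 0.01 over all genes tested. Groups did not overlap for 21 of them, again beside 39.1% of all genes.

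The alpha-secretases cut App on the route that makes no amyloid beta, and 2 of the 3 were above 0. Adam10, the main neuronal alpha-secretase, had 7052 and 6796 normalised reads in overexpressing cells, against 6504 and 4120 in wild type cells. Wild type replicate 2 was the low one, and the log2 fold change was 0.42 with all libraries and 0.09 without it (limma adjusted p = 0.678 with all). Adam9 had 5483 and 8100 in overexpressing cells, against 7882 and 7843 in wild type cells, so that 1 overexpressing library was low; the log2 fold change was -0.24 with all libraries and 0.04 without overexpression replicate 1. Adam17 had a log2 fold change of 0.07 (SE 0.083).

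Of the remaining beta- and gamma-secretase genes, Aph1b and Aph1c, alternatives to Aph1a in the complex, had log2 fold changes of 0.16 (SE 0.184) and 0.31 (SE 0.179), with uncertain counts for the shared run given above. Without wild type replicate 1 they were -0.06 for Aph1b and 0.19 for Aph1c. Bace2 was not analysed here. Among 8 modulators of gamma-secretase 3 were above 0 and 5 below, with a median of -0.02. Arrb1, a beta-arrestin gene, had 516 and 472 normalised reads in overexpressing cells, against 547 and 1631 in wild type cells. Its log2 fold change was -0.94 (SE 0.463) with all libraries and -0.15 without wild type replicate 2, the library that was also apart for Psenen and Adam10. Arrb2 stood at -0.10 (SE 0.088) and Tmed10, a p24 cargo receptor gene that limits gamma cleavage, at -0.06 (SE 0.071).

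Of 9 tested adaptors that bind the App tail or act through it, 6 were above 0 and 3 below, with a median of 0.06. Apba1, which codes for the neuronal adaptor X11 alpha, had 820 and 707 normalised reads in overexpressing cells, against 634 and 557 in wild type cells. It was higher in both overexpressing libraries, with a log2 fold change of 0.36 (SE 0.130) and an adjusted p of 0.563 by limma. Appbp2 had a log2 fold change of 0.09 (SE 0.079) and Nae1, a subunit of the NEDD8-activating enzyme first found as an App-binding protein, -0.10 (SE 0.079). Apba2 was under the filter, and Apbb3 and Dab1 were not analysed here.

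Of 11 tested genes for the traffic of App through the Golgi, endosomes and cell surface, 7 were above 0 and 4 below, with a median of 0.00482. Lrp1, an endocytic receptor gene that binds App, had 48877 and 45842 normalised reads in overexpressing cells, against 44685 and 38319 in wild type cells. Lrp1 lies on chromosome 10. Its log2 fold change was 0.19 (SE 0.096, limma adjusted p = 0.684) and became 0.05 once chromosome medians were removed. Picalm, a clathrin assembly gene, had a log2 fold change of 0.13 (SE 0.073). Vps26a, of the retromer and also on chromosome 10, had 0.12 (SE 0.094), which was -0.03 with chromosome medians removed. Sorl1 was under the filter.

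The other substrates of gamma-secretase spread most widely, with 8 of 15 above 0 and 7 below and a median of 0.00131. Groups did not overlap for 2 of them higher and 6 lower in overexpressing cells, beside 20.8% and 18.3% of all genes tested. By limma 4 of the 15 had an unadjusted p under 0.05, beside 7.92% of all genes tested. These were Jag1, Cd44, L1cam and Nrg1, all lower in overexpressing cells, with Nrg1 at a log2 fold change of -0.25 (SE 0.098). Jag1, a Notch ligand gene, had 193 and 178 normalised reads in overexpressing cells, against 311 and 292 in wild type cells. It was lower in both overexpressing libraries, at a log2 fold change of -0.70 (SE 0.148, 95% interval -1.06 to -0.34), and did not pass the threshold (limma adjusted p = 0.267). Cd44, an adhesion receptor gene, had 3153 and 3172 in overexpressing cells, against 3984 and 3714 in wild type cells, a log2 fold change of -0.28 (SE 0.079, limma adjusted p = 0.435). L1cam, a neural adhesion gene with 10 to 32.7 normalised reads in any library, had a log2 fold change of -1.28 (SE 0.414, limma adjusted p = 0.519). Sdc3 was under the filter, and Dll1, Erbb4 and Ngfr were not analysed here.

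The signal peptide peptidase family shares the catalytic design of the presenilins, and 2 of its 3 tested genes were above 0. Sppl2b had 385 and 343 normalised reads in overexpressing cells, against 269 and 323 in wild type cells, a log2 fold change of 0.30 (SE 0.155, limma adjusted p = 0.700). The value for Sppl2b, also on chromosome 10, was 0.15 with chromosome medians removed and 0.17 without wild type replicate 1. Sppl3 had a log2 fold change of 0.10 (SE 0.078) and Sppl2a of -0.01 (SE 0.079). Hm13 was not analysed here.

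**Figure D4:**
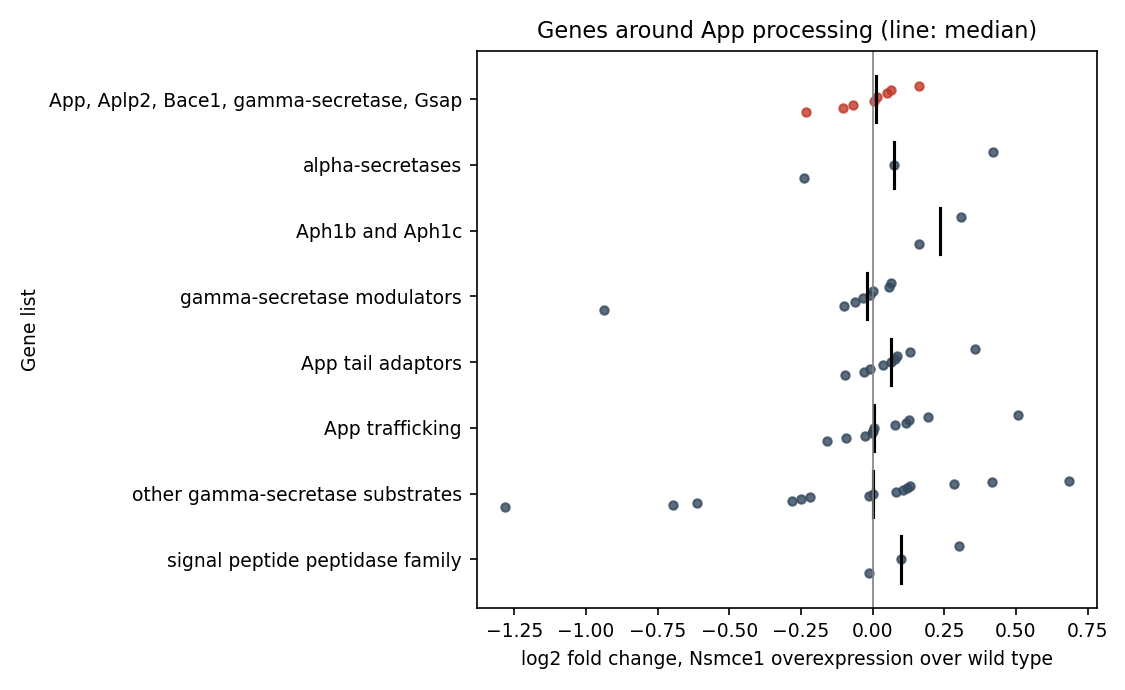
Log2 fold change (Nsmce1 overexpression over wild type) of each tested gene in the named set (red) and in the 7 pathway lists (blue), with a bar at each median. The named genes span -0.23 to 0.16, while the other gamma-secretase substrates span -1.28 to 0.69. The ends of that wider span are L1cam and Notch3, both with few reads.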

How the data were processed

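RNA was sequenced from 2 Nsmce1-overexpressing and 2 wild type HT-22 libraries, made with a TruSeq RNA kit per the labels' protocols. HISAT, Cufflinks and mm9 appear in the submitters' processing notes with no version, and read assignment is not described. Each deposited value is a log2, of 1 plus the reads of a gene as normalised by the authors. Undone, 100% of values were whole multiples of a step (tolerance 0.001 read), which gave the reads per library; 1 read was worth 0.730 to 1.26 normalised reads.

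The 15540 genes with a mean of at least 10 normalised reads were fitted with limma 3.58.1 (R 4.3.3), with a variance trend and group as the only term, on the log2 values; 9510 were below. P-values are two-sided and Benjamini-Hochberg adjusted over all genes and called under 0.05. The added 1 makes fold changes of low genes too small. The steps were tested on simulated data with planted changes larger than those of the 8 measured genes, which does not speak for changes of their size. The members and lists were chosen with earlier results of these data known. Named list genes are the up to 3 with the smallest p per list, with genes past the threshold and those under the filter. Notch3 was added as the highest of its list and Nrg1 for its unadjusted p, and 5 neighbours of App were named after their values were seen. Lengths, overlaps and gene order came from GENCODE M21 and promoters from RefSeq, by identifier or symbol, with 7 of the 8 measured genes matched in the promoter table. One gene that the rule names is not reported here. The alternatives tried stand in the closing section.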

Additional observations from a re-analysis of the deposited data

How the results depend on the processing

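Under 16 other settings, 117 of 128 values of the 8 genes kept their direction, 11 reversed and 0 were called, with a lowest limma adjusted p of 0.617. With chromosome medians removed the log2 fold change was -0.11 for App, -0.0089 for Gsap and -0.014 for Bace1. With 1 library left out it ran from 0.025 to 0.106 for App, -0.067 to 0.165 for Aplp2, -0.145 to -0.059 for Ncstn, -0.095 to -0.041 for Aph1a, -0.048 to 0.371 for Psen2, -0.51 to 0.049 for Psenen, -0.098 to 0.11 for Gsap and -0.073 to 0.107 for Bace1. The cause was not tested. Settings with a single library in a group assume that it varies like the others.

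Genes called higher, 16 in all, numbered 10 with a pseudocount of 0.1, 7 without a filter, 8 after quantile normalization, 5 without a trend, 32 with robust variances, 9 by voom, 5 and 32 at adjusted p of 0.01 and 0.10, and 2 to 33 with 1 library left out. Genes called lower, 14 in all, numbered 9 without a filter, 4 without a trend, 40 with robust variances, 6 and 37 at adjusted p of 0.01 and 0.10, and 0 to 42 with 1 library left out. The 0 came from limma without wild type replicate 1, where 416 genes were lower at an unadjusted p under 0.05. The replicate number as a block gave 36 lower and 24 higher calls. Same-numbered libraries did not deviate together over all tested genes (r = 0.0068), which does not settle whether the numbers pair the libraries.

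With 1 library left out, counts ran from 0 to 1 for alpha-secretases below 0, 1 to 2 and 0 to 1 for Aph1b and Aph1c above and below, 1 to 4 for modulators above, 1 to 5 for trafficking genes below and 0 to 1 for signal peptide peptidases below, the last also 0 with chromosome medians removed. Ratios per kilobase moved with the length used, which was added after seeing the data. Over coding length Aplp2 to App was 0.970. By all exons and by coding length, Ncstn to Aph1a was 1.5 and 0.648 (0.955 by transcript), Psenen to Ncstn 0.615 and 1.38 (0.808) and Bace1 to App 0.361 and 0.271 (0.238). By all exons Psen2 to Ncstn was 0.0347 (0.0543) and Gsap to Ncstn 0.0762 (0.155). Psen2, with 74 reads in its smallest library, had the fewest reads of the 8 genes.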

Other observations

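Among 8872 genes with a mean of at least 500 normalised reads, each library had some that stood over 0.5 on the log2 scale from the other 3 libraries while those 3 lay within 0.3 of each other. There were 83 such genes in overexpression replicate 1, Adam9 among them, and 64 in overexpression replicate 2. There were 51 in wild type replicate 1 and 57 in wild type replicate 2, and those of wild type replicate 2 included Psenen, Adam10 and Arrb1. These limits were set after seeing the data, and the cause was not tested.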
